A study of Homo sapiens with 6 samples.

Results

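The 10 genes described here carry the signal from nucleic acid in the cytosol to the interferon genes. They are the sensors CGAS, RIGI, IFIH1, DHX58 and ZBP1, the adaptors STING1 and MAVS, the kinases TBK1 and IKBKE, and the transcription factor IRF3. They were chosen by name and role, with earlier results of these data known. In a table of 35974 genes, 10 of 10 were found (RIGI stands there under its older symbol DDX58). Their RNA was measured in SU-DHL-8, an established human cell line of diffuse large B-cell lymphoma, in 3 libraries treated with GSK3685032 and 3 treated with the solvent DMSO. GSK3685032 is a reversible inhibitor of DNMT1, which restores methyl groups on newly made DNA. The cells of both groups are labelled DNMT1 wild type. The sources used here do not give the dose, the time of exposure or whether the libraries came from separate cultures. The p-values thus weigh group differences only against the scatter of these 6 libraries within their groups, and that scatter may be technical. The treatment label of inhibitor replicate 1 reads GSK3685032, those of replicates 2 and 3 read GSK3685033 and GSK3685034, and the series design names GSK3685032 alone. The 3 libraries were kept as 1 group, and the values for replicate 1 alone were computed as well.

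DNA in the cytosol is bound by cGAS, the product of CGAS, which makes the small messenger cGAMP. cGAMP binds STING, the product of STING1, on the endoplasmic reticulum. Viral or other double-stranded RNA is bound by RIG-I (RIGI) and MDA5 (IFIH1), which signal through MAVS on mitochondria. Both adaptors gather the kinases TBK1 and IKKε (IKBKE), which phosphorylate IRF3, and IRF3 then enters the nucleus and turns on interferon genes. RIGI, IFIH1, DHX58 and ZBP1 are themselves genes that interferon induces in many cell types.

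The libraries held 53846028 to 56795603 estimated counts with the inhibitor and 57451935 to 75304441 with DMSO, at about 4 counts per read pair. DNMT1 RNA measured 13.3, 11.8 and 13.0 FPKM (fragments per kilobase of transcript, scaled to library size) with the inhibitor and 33.0, 33.6 and 32.3 FPKM with DMSO. All 6 B-cell markers checked had a mean of at least 1 FPKM in both groups. Of 4 germinal centre B-cell markers, 3 reached that mean with the inhibitor and 4 with DMSO. These 4 summed to 66.4 to 78.3 FPKM with the inhibitor and 101.6 to 106.1 FPKM with DMSO. Of 21 measured markers of T, NK, myeloid, stromal, endothelial and epithelial cells, 1 reached a mean of 1 FPKM with the inhibitor (the epithelial keratin KRT18, 2.65 FPKM) and 0 did with DMSO.

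The 10 genes moved in different directions. RIGI, DHX58 and STING1 were higher with the inhibitor, CGAS, IFIH1 and ZBP1 were lower, and MAVS, TBK1, IKBKE and IRF3 did not pass the test (edgeR's quasi-likelihood test, Benjamini-Hochberg adjusted p of 0.05 over 20783 genes). The 3 higher of 10 stand beside 38.1% of all tested genes, and the 3 lower beside 27.3%. In either direction 6 of 10 were called, against 65.4% of tested genes, so the share called was near the background. FPKM ranges of the groups did not overlap for 3 genes higher (41.7% of tested genes) and 3 lower (30% of tested genes), which makes 6 of 10 against 71.7%. For calls of at least 2-fold, 1 of 10 was higher against 25.3% of tested genes, and 3 of 10 were lower against 8.1%. The median log2 fold change of the 10 was -0.06, against 0.14 over all tested genes. With upper-quartile factors the median over all tested genes was higher by 0.17 and that of the 10 genes was 0.12, so the sign of a change this small depends on the scaling.

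**Figure D1:**
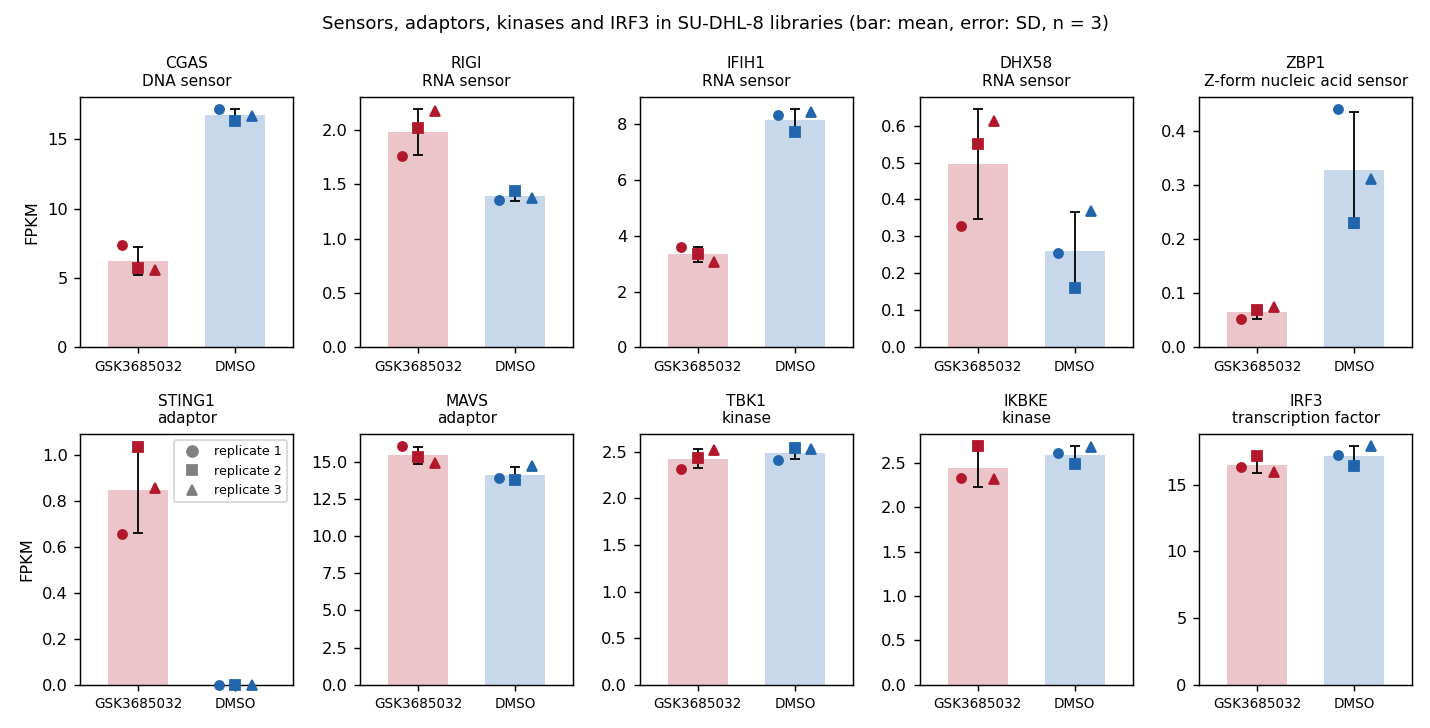
FPKM of the 10 genes in each library (y axes in FPKM, each from 0), with 3 GSK3685032 libraries at the left and 3 DMSO libraries at the right of every panel. Bars are means, error bars the SD, and symbols mark the replicates. CGAS, IFIH1 and ZBP1 lie lower in every inhibitor library, RIGI and STING1 higher, and TBK1, IKBKE and IRF3 overlap between the groups.

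CGAS, the DNA sensor (ENSG00000164430, GRCh38 chromosome 6, 73413515 to 73452297, minus strand), measured 7.40, 5.69 and 5.56 FPKM with the inhibitor and 17.2, 16.3 and 16.7 FPKM with DMSO. Every inhibitor library lay under every DMSO library, and replicate 1 was the highest of the 3. CGAS fell by 1.43 on the log2 scale, or 2.70-fold (SE 0.108, edgeR adjusted p = 2.36e-06). Its last 4052 annotated bases overlap DDX43 on the opposite strand, a helicase gene active mainly in testis and in some tumours, which measured 3.74 ± 0.372 FPKM with the inhibitor and 0.117 ± 0.0170 FPKM with DMSO (SD, n = 3 each). DDX43 rose by 4.92 on the log2 scale (SE 0.198, edgeR adjusted p = 5.54e-08), opposite to CGAS. The library kit marks strand, but no source used here says whether the counting used it, and a share of DDX43 reads in the CGAS count was not tested.

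STING1, the adaptor that reads the cGAS product (ENSG00000184584, chromosome 5, 139475533 to 139482758, minus strand), went the other way. It had 201, 310 and 245 counts in the inhibitor libraries and 0 counts in each of the 3 DMSO libraries, that is 0.655, 1.03 and 0.855 FPKM and a listed 0. Against a floor of 12 counts over the DMSO group, or 3 read pairs, STING1 was at least 75-fold higher with the inhibitor (edgeR adjusted p = 1.69e-06). The bound covers counting error alone. A gene at 0 in one group enters the test through the other group, so its call was nearly fixed by the filter on low counts. No other gene with counts was found to overlap its annotated span.

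STING1 is strongly expressed in macrophages, endothelial cells and fibroblasts, and markers of such cells were read beside it. The 6 myeloid markers summed to 0.793 to 1.08 FPKM with the inhibitor and 0.587 to 0.823 FPKM with DMSO. Among them CD14 was the highest, at a mean of 0.42 FPKM with the inhibitor and 0.51 FPKM with DMSO. ITGAM and FCGR3A were under 0.05 FPKM in every library. The 5 measured fibroblast and endothelial markers summed to 0.454 to 0.707 FPKM with the inhibitor and 0.0988 to 0.132 FPKM with DMSO. The highest with the inhibitor was COL1A2, at a mean of 0.343 FPKM, while PECAM1 and VWF were under 0.05 FPKM throughout. All 21 measured markers of other cell types, KRT18 included, summed to 5.51 to 7.92 FPKM with the inhibitor and 1.006 to 1.305 FPKM with DMSO. The part of these markers' cells in the STING1 value was not tested. In RNA from whole cultures, a few cells with much STING1 RNA and many cells with little cannot be told apart.

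The RNA sensors split. RIGI, which senses RNA with a 5′ triphosphate (ENSG00000107201, chromosome 9, 32455302 to 32526208, minus strand), measured 1.75, 2.01 and 2.17 FPKM with the inhibitor and 1.35, 1.44 and 1.37 FPKM with DMSO. The groups did not overlap, and RIGI rose by 0.51 on the log2 scale, or 1.42-fold (SE 0.0926, edgeR adjusted p = 0.000870). Under quantile normalization of the FPKM values it was not called (log2 change 0.13, limma adjusted p = 0.219). An unnamed transcript on the same strand, ENSG00000288684, covers 70886 bases of RIGI and had 255 counts with the inhibitor and 95 with DMSO, against 3731 and 3078 for RIGI itself. It was not called (log2 change 1.64, edgeR adjusted p = 0.184), and reads shared between both cannot be separated in this table.

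IFIH1, or MDA5, which senses long double-stranded RNA (ENSG00000115267, chromosome 2, 162267074 to 162318684, minus strand), measured 3.59, 3.36 and 3.05 FPKM with the inhibitor and 8.33, 7.71 and 8.46 FPKM with DMSO. All 3 inhibitor libraries lay far below all 3 DMSO libraries. IFIH1 fell by 1.29 on the log2 scale, or 2.45-fold (SE 0.0822, edgeR adjusted p = 7.77e-07). The ratio of IFIH1 to RIGI, both per length, was 2.05, 1.67 and 1.40 with the inhibitor and 6.16, 5.37 and 6.17 with DMSO. The mean log2 ratio differed by -1.80 (0.76 ± 0.274 with the inhibitor and 2.56 ± 0.115 with DMSO, SD, n = 3 each). A two-sided exact permutation test gave p = 0.1, or 0.2 adjusted over 2 ratios, and with 3 libraries per group it cannot give less than 0.1. IFIH1 thus stayed above RIGI in every library, by a smaller factor with the inhibitor.

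The stretch just upstream of each gene's start is shown for these sensors, because they are close relatives that went opposite ways. Of the 10 genes, 5 matched a window in the RefSeq promoter table (GRCh38.p14, 250 bases before to 50 after the start), namely RIGI, IFIH1, MAVS, TBK1 and IKBKE. The 250 upstream bases are given 5′ to 3′ on the gene's strand, with each CpG, the dinucleotide that DNMT1 methylates, in capitals. The RIGI bases are chr9:32526197-32526446 and the IFIH1 bases chr2:162318685-162318934.
RIGI: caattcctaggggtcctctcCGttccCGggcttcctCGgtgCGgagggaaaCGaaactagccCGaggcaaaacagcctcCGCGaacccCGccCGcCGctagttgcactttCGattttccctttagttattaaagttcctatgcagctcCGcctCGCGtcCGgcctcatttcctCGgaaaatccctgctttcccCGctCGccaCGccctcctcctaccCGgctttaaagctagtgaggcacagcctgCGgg
IFIH1: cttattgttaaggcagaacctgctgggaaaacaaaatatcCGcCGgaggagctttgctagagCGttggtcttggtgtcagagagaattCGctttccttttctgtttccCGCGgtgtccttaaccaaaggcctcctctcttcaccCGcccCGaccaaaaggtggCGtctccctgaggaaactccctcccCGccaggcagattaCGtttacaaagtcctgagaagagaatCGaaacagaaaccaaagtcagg

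These bases hold 22 CpGs upstream of RIGI and 12 upstream of IFIH1. Over the whole 300-base window the count was 27 for RIGI and 12 for IFIH1, against a median of 14 over 35116 windows. The windows of TBK1 and MAVS were richer, with 35 and 34 CpGs, and that of IKBKE poorer, with 5. DNA methylation was not analysed here, and the CpG counts are a description of the sequence.

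The windows were also searched on both strands for GAAA followed by any 2 bases and a second GAAA, a pattern that IRF factors and the interferon-activated ISGF3 complex are known to bind. The pattern occurred in 3.57% of all windows (1255 of 35116). IFIH1 held 3 matches, of which the 2 on the strand opposite to the gene overlap each other, and RIGI, MAVS, TBK1 and IKBKE held 0 in these letters. The RIGI bases above do hold gaaaCGaaa, 2 GAAA with a shorter gap, which the search did not count. Other spacings and variants of the pattern were not searched. The IFIH1 matches are printed on the gene's strand with 8 bases on each side and the match in capitals, starting 21, 159 and 153 bases before the gene's start.
IFIH1 at 21 bases: agagaatcGAAACAGAAAccaaagtc
IFIH1 at 159 bases, opposite strand: gaattcgcTTTCCTTTTCtgtttccc
IFIH1 at 153 bases, opposite strand: gctttcctTTTCTGTTTCccgcggtg

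**Figure D2:**
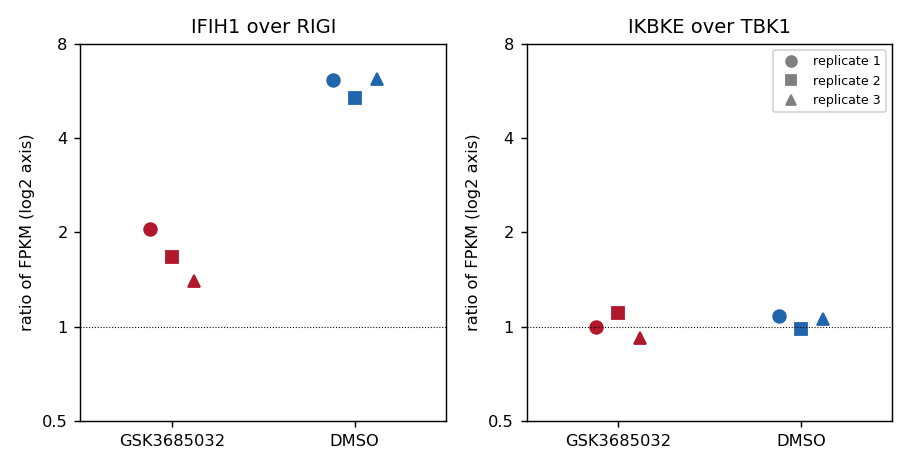
Ratio of the FPKM of IFIH1 to RIGI (left) and of IKBKE to TBK1 (right) in each library, on a log2 axis, with GSK3685032 libraries left of DMSO libraries and symbols for the replicates. The IFIH1 to RIGI ratio lies between 1.40 and 2.05 with the inhibitor and between 5.37 and 6.17 with DMSO, and the IKBKE to TBK1 ratio lies near 1 in both groups.

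DHX58, or LGP2, a RIG-I-like protein without the signalling domains of the other members (ENSG00000108771, chromosome 17, 42101404 to 42112714, minus strand), was low throughout. It measured 0.329, 0.550 and 0.612 FPKM with the inhibitor and 0.255, 0.161 and 0.368 FPKM with DMSO. The groups overlapped, since inhibitor replicate 1 lay below DMSO replicate 3. The test called it higher by 0.90 on the log2 scale, or 1.87-fold (SE 0.355, edgeR adjusted p = 0.0478), from 348 counts with the inhibitor and 215 with DMSO. That call was made in 4 of the 12 alternatives that tested DHX58. It was lost without inhibitor replicate 2 (log2 change 0.82, adjusted p = 0.121) or 3 (0.73, 0.162), without DMSO replicate 1 (0.88, 0.0996) or 2 (0.65, 0.137), and with inhibitor replicate 1 alone (0.34, 0.629), all by edgeR. It was also lost in DESeq2 (0.90, adjusted p = 0.0517) and without a filter on low counts (0.91, edgeR adjusted p = 0.0819).

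ZBP1, which binds Z-form nucleic acid and can start necroptosis (ENSG00000124256, chromosome 20, 57603846 to 57620576, minus strand), measured 0.0517, 0.0696 and 0.0749 FPKM with the inhibitor and 0.442, 0.230 and 0.312 FPKM with DMSO. Each inhibitor library lay under each DMSO library. ZBP1 fell by 2.32 on the log2 scale, or 5.01-fold (SE 0.342, edgeR adjusted p = 0.000213). The inhibitor values rest on 18, 24 and 24 counts, only a few read pairs each.

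MAVS, the mitochondrial adaptor of RIG-I and MDA5 (ENSG00000088888, chromosome 20, 3846799 to 3876123, plus strand), was the second most abundant of the 10 with the inhibitor. It measured 16.1, 15.3 and 14.9 FPKM with the inhibitor and 13.9, 13.7 and 14.7 FPKM with DMSO. The groups did not overlap, but by a narrow gap, and the log2 change of 0.12 (95% interval 0.01 to 0.24) missed the threshold (edgeR adjusted p = 0.0599). It was close to the median of all tested genes, 0.14. MAVS was called higher in 10 of 17 alternatives. Of the fits leaving out 1 library, it was called without inhibitor replicate 3 (0.15, edgeR adjusted p = 0.0374) or DMSO replicate 3 (0.15, 0.0493). It was not called without inhibitor replicate 1 (0.08, 0.190) or 2 (0.13, 0.083), or without DMSO replicate 1 (0.10, 0.181) or 2 (0.11, 0.144). Under upper-quartile factors, which called it, its log2 change was 0.29, beside a median of 0.31 over all tested genes.

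The kinases and IRF3 were not called. TBK1, the main IRF3 kinase in most cells (ENSG00000183735, chromosome 12, 64452090 to 64502114, plus strand), measured 2.32, 2.44 and 2.52 FPKM with the inhibitor and 2.41, 2.54 and 2.53 FPKM with DMSO. Its log2 change was -0.05 (95% interval -0.17 to 0.08, edgeR adjusted p = 0.492). The intervals given for these genes leave out a 2-fold change in either direction.

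IKBKE, its inducible relative (ENSG00000263528, chromosome 1, 206470476 to 206496889, plus strand), measured 2.32, 2.69 and 2.32 FPKM with the inhibitor and 2.61, 2.49 and 2.67 FPKM with DMSO. Its log2 change was -0.09 (95% interval -0.36 to 0.18, edgeR adjusted p = 0.525). The ratio of IKBKE to TBK1 was 1.001, 1.10 and 0.920 with the inhibitor and 1.08, 0.980 and 1.06 with DMSO (exact permutation p = 0.7, two-sided, also 0.7 after adjustment over 2 ratios). The kinases thus stood at about equal RNA levels per length in each of the 6 libraries.

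IRF3, the transcription factor they phosphorylate (ENSG00000126456, chromosome 19, 49659569 to 49665875, minus strand), measured 16.3, 17.1 and 16.0 FPKM with the inhibitor and 17.2, 16.4 and 17.9 FPKM with DMSO. Its log2 change was -0.07 (95% interval -0.18 to 0.05, edgeR adjusted p = 0.301). Under upper-quartile scaling the signs of TBK1, IKBKE and IRF3 turned (0.13, 0.08 and 0.11), and none of the 3 was called there. IRF3 overlaps 734 bases of BCL2L12 on the other strand, which measured 5.18 ± 0.456 FPKM with the inhibitor and 4.90 ± 0.677 FPKM with DMSO and was not called (log2 change 0.07, edgeR adjusted p = 0.630; -0.04 and 0.794 without DMSO replicate 3).

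**Figure D3:**
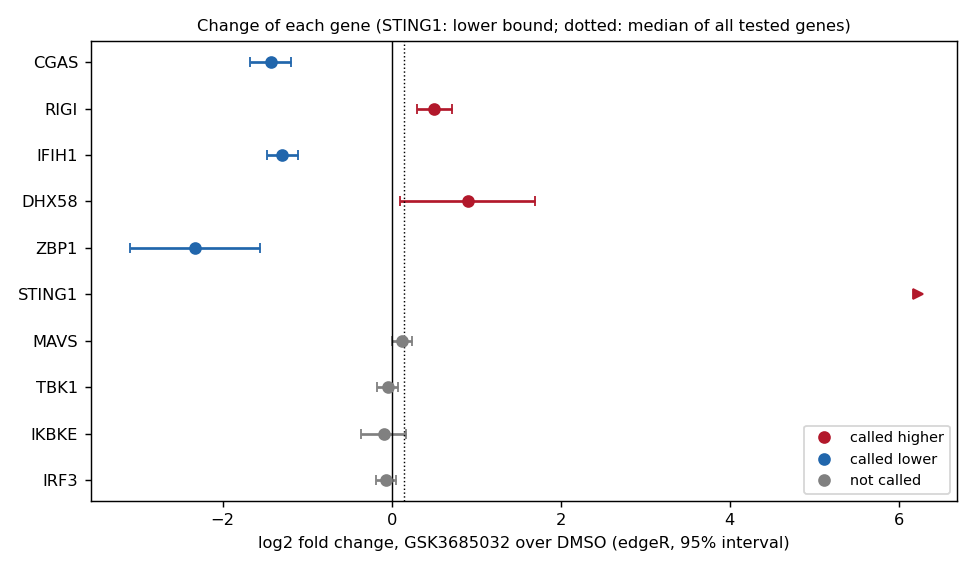
The log2 fold change of each gene, GSK3685032 over DMSO, from edgeR (x axis), with its 95% interval. Red marks genes called higher, blue genes called lower and grey genes not called; the arrow for STING1 starts at its lower bound of 6.23, and the dotted line is the median of all tested genes, 0.14. ZBP1, CGAS and IFIH1 lie left of 0, while the intervals of TBK1, IKBKE and IRF3 include 0.

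Per length, the order of levels with the inhibitor was IRF3, MAVS, CGAS, IFIH1, IKBKE, TBK1, RIGI, STING1, DHX58 and ZBP1, with means of 16.5 to 0.0654 FPKM. IRF3 and MAVS overlapped there, as did IKBKE and TBK1, while each other pair of neighbours did not. With DMSO the order was IRF3, CGAS, MAVS, IFIH1, IKBKE, TBK1, RIGI, ZBP1, DHX58 and STING1, with IRF3 at 17.1 FPKM and STING1 listed at 0. In that group IRF3 overlapped CGAS, IKBKE overlapped TBK1 and ZBP1 overlapped DHX58. CGAS thus stood beside IRF3 and above MAVS with DMSO, and below both with the inhibitor. Among the 6 called genes, inhibitor replicate 1 lay nearest to the DMSO libraries in 5 (CGAS, RIGI, IFIH1, DHX58 and STING1). The same count was not made over all tested genes, so no background share stands beside it. With replicate 1 alone, the log2 changes were -1.16 for CGAS, 0.36 for RIGI and -1.16 for IFIH1, values in which the DMSO libraries alone give the spread and the lone inhibitor library is assumed to vary like them.

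The other genes of the pathway were read from 10 lists of 126 genes, of which 111 were measured and 102 tested. Of these, 37 were higher (36.3%, against 38.1% of all tested genes) and 42 lower (41.2%, against 27.3%), with a median log2 change of -0.05. Upper-quartile scaling gave 45 higher (44.1%, against 44.8% of all tested genes) and 28 lower (27.5%, against 20.9%). That scaling shifts all genes alike, so the counts under that scaling stand beside each list below where they differed.

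Other proteins reported to sense DNA were lower in 8 of 11 and higher in 1, with a median log2 change of -0.28. Under upper-quartile scaling 5 were lower and 3 higher. PRKDC, the catalytic subunit of DNA-PK, measured 13.8 ± 0.469 FPKM with the inhibitor and 27.1 ± 1.04 FPKM with DMSO, a fall of 0.98 on the log2 scale (SE 0.0460, edgeR adjusted p = 1.32e-07). XRCC6, or Ku70, its DNA-end partner, measured 157 ± 1.14 FPKM with the inhibitor and 259.5 ± 2.70 FPKM with DMSO. HMGB1, a chromatin protein that binds DNA, measured 68.1 ± 3.96 FPKM with the inhibitor and 112 ± 2.35 FPKM with DMSO. XRCC6 fell by 0.73 and HMGB1 by 0.72 on the log2 scale (edgeR adjusted p = 1.92e-07 and 5.46e-07).

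Other RNA sensors were lower in 4 and higher in 3 of 10 (median -0.04), and lower in 2 and higher in 4 under upper-quartile scaling. DHX33, an RNA helicase, measured 20.1 ± 0.235 FPKM with the inhibitor and 26.5 ± 0.453 FPKM with DMSO (log2 change -0.40, edgeR adjusted p = 1.91e-05). EIF2AK2, or PKR, which halts translation on double-stranded RNA, measured 5.10 ± 0.294 FPKM with the inhibitor and 6.26 ± 0.456 FPKM with DMSO (log2 change -0.30, edgeR adjusted p = 0.00212; -0.13 and 0.104 under upper-quartile scaling, where the call was lost). The widest changes in this list, -1.53 and 3.93 on the log2 scale, belonged to genes whose mean was under 1 FPKM in both groups.

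Enzymes that clear or edit the cell's own nucleic acids were lower in 5 and higher in 3 of 12 (median -0.38), and 4 each way under upper-quartile scaling. RNASEH2A and RNASEH2B, subunits of the enzyme that removes RNA from DNA, fell by 1.94 and 1.12 on the log2 scale (edgeR adjusted p = 1.66e-07 and 4.23e-08). RNASEH2A measured 8.09 ± 0.979 FPKM with the inhibitor and 30.9 ± 2.08 FPKM with DMSO, and RNASEH2B 4.67 ± 0.203 FPKM with the inhibitor and 10.1 ± 0.126 FPKM with DMSO. The lysosomal ribonuclease RNASET2 rose, to 5.95 ± 0.429 FPKM with the inhibitor against 2.49 ± 0.221 FPKM with DMSO (log2 change 1.25, edgeR adjusted p = 3.90e-07).

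Regulators of RIG-I, MDA5 and MAVS were lower in 7 and higher in 3 of 13 (median -0.23), and lower in 5 and higher in 4 under upper-quartile scaling (median -0.06). RNF135, a ubiquitin ligase that activates RIG-I, measured 3.69 ± 0.311 FPKM with the inhibitor and 2.38 ± 0.268 FPKM with DMSO (log2 change 0.63, edgeR adjusted p = 0.00382). TOMM70, a mitochondrial import receptor that binds MAVS, and PPP1CA, a phosphatase that activates RIG-I and MDA5, fell by 0.59 and 0.58 on the log2 scale (edgeR adjusted p = 1.27e-06 and 2.26e-06).

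Signalling proteins between the adaptors and the kinases were lower in 10 and higher in 6 of 18 (median -0.25), and 6 each way under upper-quartile scaling. Of the 6 higher, 1 had 2 DMSO counts and passed the filter on low counts through the inhibitor libraries. The ubiquitin ligase TRAF2 measured 8.85 ± 0.826 FPKM with the inhibitor and 21.8 ± 0.258 FPKM with DMSO (log2 change -1.31, edgeR adjusted p = 3.77e-07). FADD, an adaptor shared with cell death pathways, measured 11.1 ± 0.212 FPKM with the inhibitor and 23.6 ± 1.66 FPKM with DMSO (log2 change -1.10, edgeR adjusted p = 9.08e-07). TRADD, another adaptor, rose to 4.89 ± 0.157 FPKM with the inhibitor, against 2.37 ± 0.616 FPKM with DMSO (log2 change 1.04, edgeR adjusted p = 0.000836).

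**Figure D4:**
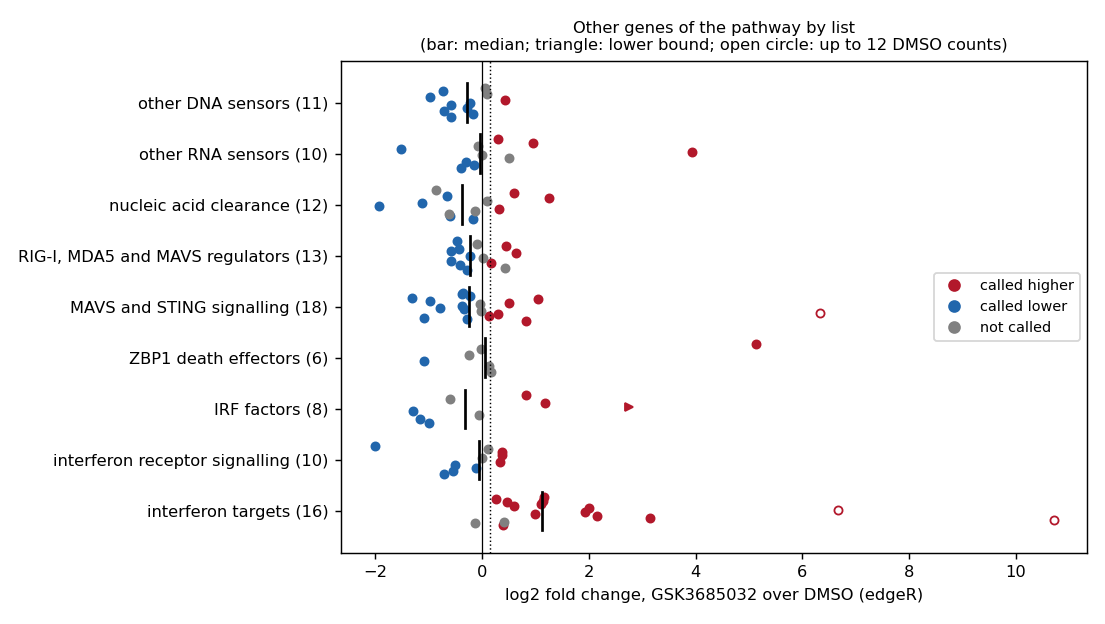
The log2 fold change, GSK3685032 over DMSO, of each tested gene in the 9 lists with tested genes (number tested in brackets; colours as called by edgeR; black bars are list medians, the dotted line the median of all tested genes, 0.14). The triangle is the lower bound of a gene at 0 in DMSO, and open circles, whose position depends on the fit, have up to 12 DMSO counts. The interferon targets lie mostly right of 0, with a median of 1.12, and the other DNA sensors mostly left, with a median of -0.28.

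Of 6 effectors of ZBP1-driven cell death, 1 was higher and 1 lower, against 3 higher and 1 lower under upper-quartile scaling and 2 higher and 4 lower under quantile normalization (limma). FADD is the one that fell. The one called higher is RIPK3, the kinase that ZBP1 engages for necroptosis, named here after its values were seen. RIPK3 measured 0.646, 0.763 and 0.739 FPKM with the inhibitor and 0.0199, 0.0380 and 0 FPKM with DMSO. With 4, 10 and 0 counts in the DMSO libraries it passed the filter on low counts through the inhibitor libraries, so its call was nearly fixed by that filter. MLKL, the pore-forming protein under RIPK3, was not called (0.530 ± 0.0262 FPKM with the inhibitor and 0.631 ± 0.116 FPKM with DMSO, edgeR adjusted p = 0.303). ZBP1 and RIPK3 were both under 1 FPKM in every library.

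Interferon regulatory factors other than IRF3 were higher in 3 and lower in 3 of 8, and 1 of the 3 higher had 0 DMSO counts. IRF7, the factor that amplifies interferon production and is itself induced by interferon, measured 7.31 ± 0.758 FPKM with the inhibitor and 3.20 ± 0.225 FPKM with DMSO (log2 change 1.18, SE 0.118, edgeR adjusted p = 1.52e-05). IRF5 fell by 1.30 and IRF2 by 1.16 on the log2 scale (edgeR adjusted p = 4.56e-06 and 5.85e-08). IRF2 measured 13.8 ± 0.608 FPKM with the inhibitor and 30.9 ± 0.879 FPKM with DMSO.

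Of the type I and type III interferon genes listed, 6 of 20 were measured, and 0 had enough counts to be tested. IFNB1, the interferon that IRF3 turns on first in many cells, measured 0, 0.231 and 0 FPKM with the inhibitor and 0.117, 0.393 and 0.0662 FPKM with DMSO, on 12 and 38 counts. No value of these 6 genes passed 0.393 FPKM, and a difference was not detectable at this depth.

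Genes of interferon receptor signalling were higher in 3 and lower in 5 of 10 (median -0.07), and higher in 4 and lower in 3 under upper-quartile scaling and 4 each way under quantile normalization (limma). The receptor chains IFNAR1 and IFNAR2 fell by 0.72 and 0.54 on the log2 scale (edgeR adjusted p = 1.54e-06 and 2.59e-05). USP18, an interferon-induced brake on the receptor, measured 0.559 ± 0.0954 FPKM with the inhibitor and 2.26 ± 0.246 FPKM with DMSO (log2 change -2.01, edgeR adjusted p = 9.11e-06).

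The listed interferon targets were higher in 14 and lower in 0 of 16 (87.5% higher, against 38.1% of all tested genes). Their median log2 change was 1.12. The list was chosen with earlier results of these data known, so this share does not stand for all genes that interferon induces. The size of the median depended on the fit. Among the 8 genes that reach 1 FPKM in at least 3 libraries it was 0.91, with 7 higher and 0 lower. With limma on log2 of FPKM plus 0.5 it was 0.56 over 13 genes. Under quantile normalization it was 0.30, and 6 of the 13 tested by limma were higher and 0 lower. With inhibitor replicate 1 alone it was 1.20, a value that rests on 1 inhibitor library. Of the 16 genes, 2 had 12 or fewer DMSO counts and passed the filter mainly through the inhibitor libraries. One of them is the chemokine CXCL11, at 23.9 ± 1.45 FPKM with the inhibitor and 5 counts over the DMSO group. The ligase HERC5 measured 1.93 ± 0.395 FPKM with the inhibitor and 0.428 ± 0.101 FPKM with DMSO (log2 change 2.16, edgeR adjusted p = 2.89e-05), and IFI6 4.26 ± 0.651 FPKM with the inhibitor and 1.04 ± 0.630 FPKM with DMSO (log2 change 2.01, edgeR adjusted p = 0.00137). Interferon-inducible genes outside this list went both ways: RIGI and IRF7 are among those that rose, and IFIH1, ZBP1, USP18 and EIF2AK2 among those that fell.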

How the data were processed

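RNA was measured by sequencing of poly(A) RNA from 6 SU-DHL-8 libraries, per the labels' protocols. For each gene the authors deposited an FPKM value and an estimated count; how either was scaled is not stated in the header. The submitters' processing notes list, with no role, the tools HISAT2 2.2.1, StringTie 2.1.6, edgeR, DESeq2 and cutadapt 1.9, and the mouse build mm10. The gene IDs are human. GENCODE release 29 held 34105 of the 35974, with overlapping GRCh38 positions for 99.89%, so coordinates are read as GRCh38. Estimated counts of 4 were more frequent than counts of 3 or 5 (on average 1319.8, 725.8 and 474.5 genes per library), so 4 counts were read as about 1 read pair. Low values are therefore coarse, and floors cover counting error only. The intervals of log2 changes come from the quasi-likelihood fit, so they also include the scatter of the libraries within their groups.

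Groups were compared by quasi-likelihood in edgeR 4.0.16 under R 4.3.3, after filterByExpr, with TMM factors of 0.981 to 1.02; the script was tested on simulated data. SE is the log2 fold change over the root of F. Libraries were grouped by title (3 and 3). No 2 libraries of a group held identical values, and each pair differed by 3.30 to 6.83 times the sampling variance. Alternatives were DESeq2 1.42.0, limma 3.58.1 on log2 FPKM, other scalings and filters, and leaving out each library; the counts of each list under other scalings were added after seeing the data. Other genes named are DNMT1, IFNB1, overlapping genes at 1 FPKM or more, and up to 3 called genes per list with the largest change at a mean of at least 1 FPKM, of which 1 is not reported here. RIPK3, MLKL and ENSG00000288684 were named after their values were seen. The 10 genes and the lists were chosen with earlier results of these data known. Protein sequences were not used here.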

Additional observations from a re-analysis of the deposited data

How the results depend on the processing

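The 10 genes were refitted under 17 alternatives, giving 159 values. CGAS and IFIH1 kept direction and call in 17 of 17 (log2 changes -1.59 to -1.16 and -1.37 to -1.08) and ZBP1 in 12 of 12 that tested it (-2.62 to -2.06). The STING1 call, with 0 DMSO counts, says nothing of stability. STING1, DHX58 and ZBP1 were not tested under a filter keeping genes that reach FPKM 1 in 3 libraries, nor DHX58 and ZBP1 with limma, because of their low levels. TBK1, IKBKE and IRF3 turned sign under upper-quartile factors (0.13, 0.0812 and 0.11, edgeR adjusted p = 0.0716, 0.573 and 0.0929) and under the FPKM filter (0.0513, 0.0063 and 0.032, edgeR adjusted p = 0.431, 0.965 and 0.597). Under quantile normalization IRF3 turned and was called (0.16, limma adjusted p = 0.0187), and TBK1 (-0.21) and IKBKE (-0.24) were called lower. BCL2L12 turned with inhibitor replicate 1 alone (-0.0121) and without DMSO replicate 3 (-0.0389). The upper-quartile factors shift all genes alike, with the median over all tested genes higher by 0.17. The cause of the other turns and calls was not tested. Of 459 values of 27 other genes chosen by the naming rule, 450 kept direction and call; RNF135 and IFI6 lost theirs with inhibitor replicate 1 alone (edgeR adjusted p = 0.0885 and 0.0508), a fit whose spread comes from the DMSO libraries only.

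Counts of the 10 genes called were 2 to 4 higher and 2 to 4 lower over the alternatives, 2 to 4 and 3 when 1 library was left out. The shares of all tested genes called over the alternatives ran from 23.3% to 44.8% higher and from 14.8% to 39% lower. Over all genes, 7918 were called higher and 5672 lower. Under the FPKM filter 4826 were called higher of 12395 tested, and with limma 5260, 5233 and 5259 (pseudocounts 0.5, 0.1 and 1) of 14807, with fewer genes tested. Quantile normalization gave 4853 higher and 5776 lower. With the replicate number as a block, 2 of the 10 genes were higher and 3 lower, with DHX58 lost (0.93, edgeR adjusted p = 0.0554). In that fit 7448 genes in all were higher (35.8% of those tested) and 5368 lower (25.8%). The numbers did not pair the libraries: deviations of libraries with the same number correlated at -0.00216, 0.0985 and -0.0553 over 11212 genes, and inhibitor replicate 1 correlated best with DMSO replicate 3 (0.124). At about 4 counts per read pair, depth limits STING1 (0 DMSO counts), ZBP1, DHX58 and the interferon genes.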
